A study of Arabidopsis thaliana with 18 samples.

Results

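The MIR399 loci are the genes for miR399, a microRNA of phosphate homeostasis in plants. The 4 described here, MIR399a (AT1G29265), MIR399b (AT1G63005), MIR399c (AT5G62162) and MIR399d (AT2G34202), were chosen by their gene identifiers and all 4 are among the 32420 genes of the table. The other loci of the family, MIR399e (AT2G34204) and MIR399f (AT2G34208), lie beside MIR399d and are given for comparison. The study sequenced small RNAs of Arabidopsis thaliana, and the table holds the 22-nt class counted per gene. The 18 libraries came, by the labels of tissue and age, from whole seedlings 14 days old, with 3 biological replicates for each of 6 groups. As labelled, these were the double mutant dcl4-2 dcl2-1 on 1 µM abscisic acid (ABA) and on MS medium, the single mutant dcl4-2 on 1 µM ABA and on MS, and the wild type Col-0 on 1 µM ABA and on MS. MS is Murashige and Skoog medium, which supplies phosphate, and ABA is a hormone of the stress response. Low phosphate was no part of the design. Another label, on growth and treatment, disagrees: it names the aerial parts of older plants that had been moved to soil, and no treatment.

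Plants make miR399 from hairpin transcripts, mainly with the Dicer-like enzyme DCL1, which neither mutant lacks. DCL4 makes mostly 21-nt small interfering RNAs (siRNAs), and DCL2 makes 22-nt siRNAs, most of all where DCL4 is missing. When phosphate runs short, the transcription factor PHR1 raises MIR399 transcription, and miR399 moves from shoot to root. There it cuts the mRNA of PHO2, a ubiquitin-conjugating enzyme that removes phosphate transporters. The non-coding RNAs IPS1 and AT4 bind miR399 without being cut and so hold it back.

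The annotated mature forms show how alike the family is, and are given here from the RefSeq annotation and genome TAIR10.1, with bases 2 to 8 (the seed) in capitals. All 6 are 21 nt long and share the seed GCCAAAG.
miR399a: uGCCAAAGgagauuugcccug
miR399b: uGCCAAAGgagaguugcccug
miR399c-3p: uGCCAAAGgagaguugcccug
miR399d: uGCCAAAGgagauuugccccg
miR399e: uGCCAAAGgagauuugccucg
miR399f: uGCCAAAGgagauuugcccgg
Relative to miR399a, and counted from 1 at the 5′ end, miR399b and miR399c-3p carry U13G and are the same sequence. miR399d carries U20C, miR399e carries C19U and U20C, and miR399f carries U20G. MIR399c also has an annotated 5′ arm form, miR399c-5p, gGGCAUCUuucuauuggcagg, with another seed.

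The hairpins are shown because the bases around the mature form decide whether a 22-nt read can be placed. They are printed as RNA, 5′ to 3′, with the mature form in capitals. In TAIR10.1, MIR399a lies at chr1:10227073-10227195 on the plus strand, MIR399b at chr1:23345377-23345511 on the minus strand, MIR399c at chr5:24962485-24962598 on the plus strand and MIR399d at chr2:14442978-14443077 on the minus strand. No other annotated gene overlaps any of the 4.
MIR399a hairpin: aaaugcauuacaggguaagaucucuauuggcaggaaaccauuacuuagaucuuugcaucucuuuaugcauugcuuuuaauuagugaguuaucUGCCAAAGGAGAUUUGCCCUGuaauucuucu
MIR399b hairpin: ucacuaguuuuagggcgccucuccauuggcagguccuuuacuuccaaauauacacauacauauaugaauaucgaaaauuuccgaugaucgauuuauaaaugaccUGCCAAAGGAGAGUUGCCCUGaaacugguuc
MIR399c hairpin: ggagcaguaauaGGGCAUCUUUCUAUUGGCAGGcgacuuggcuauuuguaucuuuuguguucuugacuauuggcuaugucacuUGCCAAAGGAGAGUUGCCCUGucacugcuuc
MIR399d hairpin: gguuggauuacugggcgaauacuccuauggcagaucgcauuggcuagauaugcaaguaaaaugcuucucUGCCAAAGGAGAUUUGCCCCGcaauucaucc
Each hairpin was cut into all its 22-base windows and each window was looked for on both strands of the genome. None of the 102 windows of MIR399a, the 114 of MIR399b or the 93 of MIR399c was found anywhere else. Of the 79 windows of MIR399d, 2 were also in the MIR399f hairpin, and those 2 do not hold the whole mature form. A 22-nt read that matches MIR399a without mismatch can therefore come from no other place in the genome, although miR399b and miR399c-3p are identical as 21-nt forms. The table gives reads per gene and not their sequence, so whether these reads are 22-nt forms of miR399 or other pieces of the hairpin is not known. How the authors treated mismatches, or reads with several places, is not stated in the sources used here. In dcl4-2 dcl2-1 on MS, MIR157a and MIR157b had the same recovered reads, 274, 407 and 3. Reads with several places may thus be counted at each place. The summed level of MIRNA loci used below would then hold such reads more than once, and counts of MIRNA loci would not all be separate.

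MIR399d stands in a cluster on chromosome 2. MIR399e begins 426 bases beyond MIR399d and MIR399f 1384 bases beyond MIR399e, both on the opposite strand to MIR399d, so that the 3 loci span 2137 bases. MIR399a, MIR399b and MIR399c have no other family member beside them.

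The targets carry sites that pair with members of the family, and only the best partner of each site was kept. PHO2 (AT2G33770) had 5 sites in the 5′ UTR of its RefSeq transcript, at positions 680, 813, 902, 959 and 1016 of 4176, all before the coding region begins at position 1226. The first, at chr2:14282106-14282126 on the minus strand, and the third are shown because they pair with a family member without mismatch.
PHO2 site at position 680: uagggcaaaucuucuuuggca
PHO2 site at position 902: uugggcaaaucuccuuuggca
The first pairs with miR399a and the third with miR399f, each with 2 G:U pairs and 0 mismatches, and the other 3 sites have 1 mismatch with their best partner. IPS1 (AT3G09922) and AT4 (AT5G03545) each hold 1 site with 3 unpaired bases in its middle, shown in capitals, the feature that keeps a mimic from being cut.
IPS1 site: uugggcaacuuCUAuccuuuggca
AT4 site: uugggcaacuuCGAuccuuuggca

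The deposited values are group means of normalised counts, reads divided by a size factor of each library, and the whole reads of each library were recovered from them. The recovered libraries carry no replicate number and are given the letters A, B and C in each group, from the largest to the smallest size factor. Depth was uneven: the 22-nt reads in genes ranged from 813 in library C of dcl4-2 dcl2-1 on MS to 390890 in library A of dcl4-2 on ABA, where NIA1 and NIA2 are not counted. A read was thus worth between 0.0789 and 10.5 normalised counts. The 3 mutant libraries that follow were shallow for their group: library C of dcl4-2 on ABA (19915 reads) and library C of dcl4-2 dcl2-1 on ABA (3263 reads) and on MS (813 reads). Reads of a gene in this size class do not measure its mRNA, so the dcl4-2 and dcl2-1 labels cannot be checked by the mRNA of DCL4 and DCL2. Whether the 22-nt siRNAs of the libraries go with these labels was not tested here.

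MIR399a gave nearly all the reads of the 4 loci. It had 9717 reads over the 18 libraries, 99.0% of the reads of MIR399a to MIR399d, and at least 6 in every library. MIR399c had 49, MIR399d 44 and MIR399b 7. Per annotated length, with group means divided by hairpin length, MIR399a had the highest 22-nt level of all 31710 genes with a length in Col-0 on MS, at 4967 normalised counts per kb. The next was MIR166f, at 4790 per kb, a locus of the leaf polarity microRNA miR166. The top rank of the mean rests on library C, in which MIR399a was at rank 1 per length, against ranks 4 and 5 in libraries A and B. In the other groups MIR399a ranked between 5 and 14 of all genes, with the lowest rank in dcl4-2 on ABA, at 1535 per kb.

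**Figure D1:**
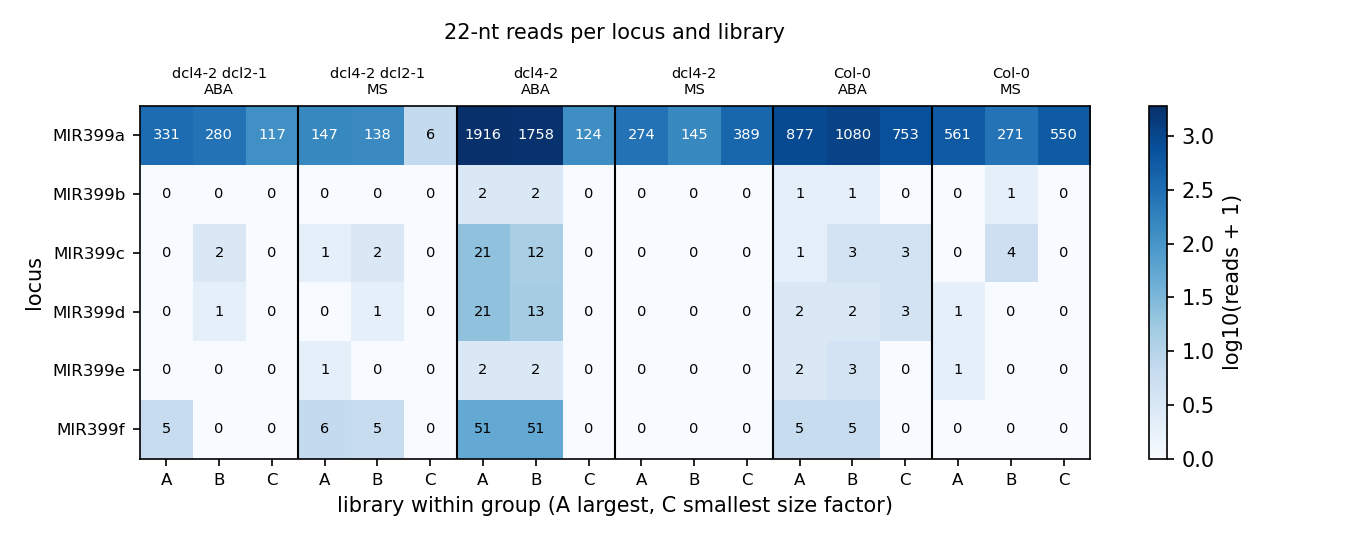
22-nt reads (digits; colour, log10 of reads + 1) of 6 MIR399 loci (rows) in 18 libraries (columns, grouped by genotype and medium). MIR399a has reads in every library, from 6 to 1916, and the other loci reach no more than 51.

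The mean level of MIR399a was lowest in dcl4-2 dcl2-1 on MS and highest in Col-0 on MS. For dcl4-2 dcl2-1 the libraries A, B and C had 259, 254 and 647 normalised counts on ABA (from 331, 280 and 117 reads) and, on MS, 134, 139 and 63.0 (147, 138 and 6 reads). For dcl4-2 the values were 151, 175 and 239.9 on ABA (1916, 1758 and 124 reads) and, on MS, 329.7, 218 and 757 (274, 145 and 389 reads). In Col-0 on ABA they were 400.4, 590.2 and 492 (877, 1080 and 753 reads), and in Col-0 on MS 574, 312 and 947 (561, 271 and 550 reads). The spread within a group was widest in Col-0 on MS and dcl4-2 on MS, and in 4 of the 6 groups library C, with the smallest size factor, was the highest. Whether depth had a part in this was not tested. Counting error alone is far smaller for most libraries: for library C of Col-0 on MS its 95% exact Poisson interval runs from 869.8 to 1030 normalised counts. For the 6 reads of library C of dcl4-2 dcl2-1 on MS it runs from 23.1 to 137. These intervals cover counting error only. In whole seedlings, fewer cells that make an RNA and less of it per cell cannot be told apart.

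By mean and SD (n = 3 each), from low to high, MIR399a stood at 112 ± 42.7 normalised counts in dcl4-2 dcl2-1 on MS, 189 ± 45.9 in dcl4-2 on ABA, 386 ± 225 in dcl4-2 dcl2-1 on ABA, 435 ± 284 in dcl4-2 on MS, 494 ± 94.9 in Col-0 on ABA and 611 ± 319 in Col-0 on MS. The upper 4 overlapped each with the next, so their order is not settled. The libraries of dcl4-2 dcl2-1 on ABA lay all above those of dcl4-2 on ABA, and these all above those of dcl4-2 dcl2-1 on MS.

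**Figure D2:**
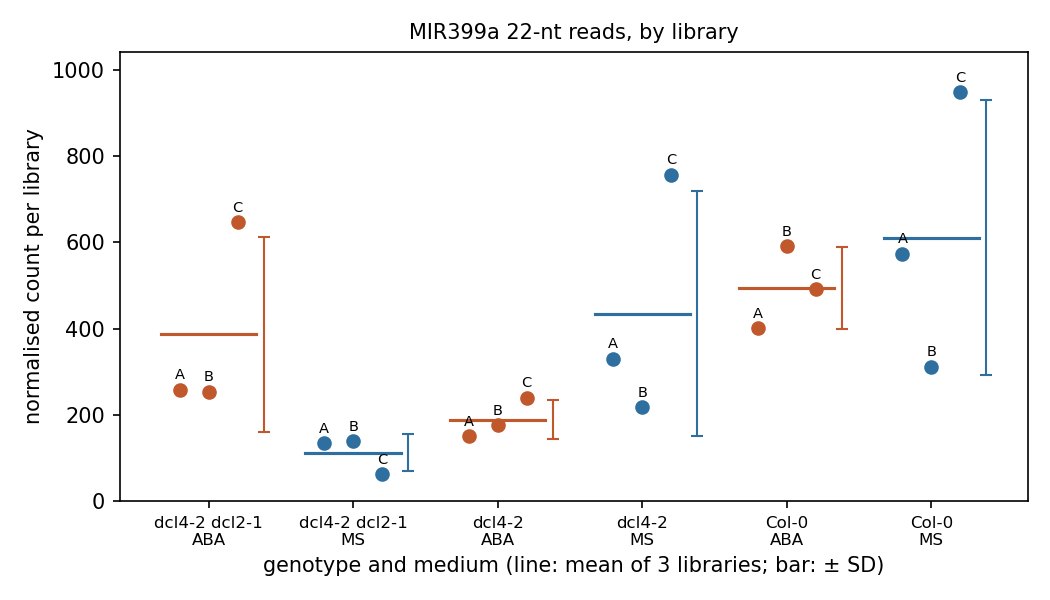
Normalised 22-nt count of MIR399a in each library (points, with the library letter), by genotype and medium; lines are means and bars ± SD of 3 libraries. The 3 libraries of dcl4-2 dcl2-1 on MS, 63.0 to 139, lie below every other library.

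The library values in dcl4-2 dcl2-1 on MS rest on a choice. There, 4 sets of whole reads give the deposited mean of MIR399a exactly, since 52 reads of library B weigh the same as 5 of library C. The set of 147, 138 and 6 reads was taken because it alone gives the log2 fold change of the authors' deposited table for ABA against MS, 1.70, within 0.001. The most even set, 147, 86 and 11 reads, would give 1.77. The group mean is the same for all 4, but the SD is not, at 42.7 for the set taken, 23.9 for the most even, and 69.5 and 92.6 for the other two. In those last sets the highest library, at 168 or 192 normalised counts, would overlap dcl4-2 on ABA.

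Fold changes and tests were on log2(normalised count + 1), with limma over 5697 genes (5695 where dcl4-2 on ABA enters), Benjamini-Hochberg adjusted, with 0.05 as the threshold for the adjusted p. MIR399a, MIR399c and MIR399d had at least 1 normalised count in at least 3 libraries and were tested. MIR399b, with 1 library that high, was not. Of the 9 comparisons of genotype or medium, 1 gave a member that passed.

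Without DCL4 and DCL2, on MS, MIR399a fell relative to the wild type. It averaged 112 ± 42.7 in dcl4-2 dcl2-1 on MS and 611 ± 319 in Col-0 on MS, 5.45-fold lower, and no library of the mutant reached the lowest of Col-0. The log2 fold change was -2.38 ± 0.49 (SE; limma, adjusted p = 0.00129). Of all genes tested 1.19% passed in this comparison, every one of them lower in the mutant, and 8.62% had all 3 mutant libraries below all 3 of Col-0. Of the 91 other MIRNA loci tested, 2 passed, both lower, and 3 lay below MIR399a. Their median was -0.15 and that of all genes -0.34. The call rests on library C of Col-0 on MS: without it the difference was -1.99 and the adjusted p 0.0794 (limma). MIR399c and MIR399d did not pass, at 0.014 and -0.0032 on the log2 scale.

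Set against dcl4-2 alone, the double mutant on MS just missed the threshold. MIR399a averaged 112 ± 42.7 in dcl4-2 dcl2-1 on MS and 435 ± 284 in dcl4-2 on MS, with no overlap of libraries, a pattern that 3.81% of all genes tested showed in this direction. The log2 difference was -1.83 ± 0.49 (limma, adjusted p = 0.0504), and 0.597% of all genes passed. It passed when library B of dcl4-2 on MS was left out (-2.23, limma adjusted p = 0.0169) or library B of dcl4-2 dcl2-1 on MS (-2.03, limma adjusted p = 0.0368). Over the 6 fits with 1 library left out, the adjusted p ran from 0.0169 to 0.354 (limma). Of all 18 alternatives 8 passed, with an adjusted p of up to 0.461 (limma). No other MIRNA locus passed in this comparison, and 18 of 91 had an unadjusted p under 0.05.

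The difference in MIR399a between the single mutant and the wild type on MS was within the spread between libraries. The values were 435 ± 284 in dcl4-2 on MS and 611 ± 319 in Col-0 on MS, with libraries that overlapped, and the log2 difference was -0.55 ± 0.49 (limma, adjusted p = 0.815). Here 0.491% of all genes passed, and 1 of the 91 other MIRNA loci, which was lower. All 3 libraries of dcl4-2 on MS were at 0 reads for MIR399b, MIR399c and MIR399d, for which the limit of 3 reads comes to 1.49 normalised counts over the group, and the upper bound of the 95% exact Poisson interval to 1.84.

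On ABA the double mutant had the higher mean of both mutants. MIR399a averaged 386 ± 225 in dcl4-2 dcl2-1 on ABA and 189 ± 45.9 in dcl4-2 on ABA, with no overlap. The log2 difference was 0.91 ± 0.49 and did not pass (limma, adjusted p = 0.252), while 6.27% of all genes did. By direction, 0.105% of all genes passed as higher and 6.16% as lower. Of the 91 other MIRNA loci, 9 were lower and 0 higher, and 89 lay below MIR399a, with a median of -0.65 beside -0.51 for all genes. The share of genes whose 3 double mutant libraries lay above all 3 of dcl4-2 was 1.35%. The authors' deposited table gives 1.02 for MIR399a in this comparison, with a p-value of 0.0459 and an adjusted p-value of 0.200.

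Relative to Col-0 on ABA, neither mutant passed. dcl4-2 on ABA averaged 189 ± 45.9 and Col-0 on ABA 494 ± 94.9, without overlap, as for 6.58% of all genes in this direction, and the log2 difference was -1.39 ± 0.49 (limma, adjusted p = 0.424; 0.228% of all genes passed). With voom weights on the recovered reads it passed (-1.48, limma adjusted p = 0.000331). Of the 91 other MIRNA loci, 3 lay below it. dcl4-2 dcl2-1 on ABA averaged 386 ± 225 beside 494 ± 94.9 in Col-0 on ABA, with libraries that overlapped, and the log2 difference was -0.48 ± 0.49 (limma, adjusted p = 0.646; 0.649% of all genes passed). That difference had the opposite sign, 0.058, when the summed level of all MIRNA loci was made equal between libraries. This scaling shifts the median of all genes by 0.21. Any gene far above 1 normalised count shifts by more, about as much as MIR399a. The libraries were divided by 0.836 to 1.46 in dcl4-2 dcl2-1 on ABA and by 1.17 to 2.22 in Col-0 on ABA.

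The difference of MIR399a between ABA and MS passed in no genotype, and its sign was not the same in all 3. In dcl4-2 dcl2-1 it averaged 386 ± 225 on ABA and 112 ± 42.7 on MS, with no overlap, as for 2.47% of all genes in this direction. The log2 difference was 1.71 ± 0.49 (limma, adjusted p = 0.153; 0.158% of all genes passed). Without the 3 shallow mutant libraries it was 0.90 ± 0.46 (limma, adjusted p = 0.820), and the authors' deposited table gives 1.70 with a p-value of 0.00131 and an adjusted p-value of 0.955. The reads on MS were chosen to give that 1.70, so its likeness to 1.71 is no separate evidence.

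In dcl4-2, MIR399a averaged 189 ± 45.9 on ABA and 435 ± 284 on MS, with 1 library of each group inside the range of the other. The log2 difference was -1.03 ± 0.49 (limma, adjusted p = 0.172), and the authors' deposited table gives -1.21 with an adjusted p-value of 0.0999. Of all genes 5.46% passed, 5.22% as higher and 0.246% as lower. Of the 91 other MIRNA loci, 23 rose on ABA and 1 fell, 5 lay below MIR399a, and their median was 1.35 beside 0.51 for all genes. When the summed level of all MIRNA loci was made equal between libraries, MIR399a stood at -2.53 ± 0.44 and passed (limma, adjusted p = 0.00147). This scaling divided the libraries by 1.51 to 2.59 in dcl4-2 on ABA and by 0.382 to 1.09 in dcl4-2 on MS. It shifts the median of all genes by -0.45. Any gene far above 1 normalised count shifts further down, about as much as MIR399a. Relative to the summed MIRNA level MIR399a was thus lower on ABA in dcl4-2. On the authors' scale the difference did not pass as reported, though it did with voom weights.

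In Col-0, MIR399a averaged 494 ± 94.9 on ABA and 611 ± 319 on MS, and its libraries on ABA lay within the range of those on MS. The log2 difference was -0.18 ± 0.49 (limma, adjusted p = 0.886; 0.667% of all genes passed), and it was 0.21 without library C of Col-0 on MS. Of the 91 other MIRNA loci, 5 rose on ABA in Col-0 and 0 fell, with a median of 0.66 beside 0.26 for all genes.

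The differences between these ABA effects were tested themselves. The effect in dcl4-2 dcl2-1 exceeded that in dcl4-2 by 2.74 ± 0.69 on the log2 scale (limma, adjusted p = 0.0743). Of all genes 0.105% passed, every one of them with a negative difference. Among the 91 other MIRNA loci, 90 had a smaller difference than MIR399a, and the median was -0.70. Making the summed MIRNA level equal shifts the median of all genes by 0.52. Any gene far above 1 normalised count shifts by more, about as much as MIR399a. With that scaling the difference for MIR399a passed (3.68, limma adjusted p = 0.0036), and it did not without the 3 shallow mutant libraries (2.12, limma adjusted p = 0.207). It also passed without library B of dcl4-2 on MS (3.14, limma adjusted p = 0.0348) and without library C of dcl4-2 dcl2-1 on MS (2.37, limma adjusted p = 0.0314). Over the 12 fits with 1 library left out, the adjusted p ran from 0.0314 to 0.321 (limma), and 6 of all 24 alternatives passed. The effect in dcl4-2 dcl2-1 exceeded that in Col-0 by 1.896 ± 0.69 (limma, adjusted p = 0.543; 0.176% of all genes passed). The effect in dcl4-2 minus that in Col-0 was -0.85 ± 0.69 (limma, adjusted p = 0.871), and 0.263% of all genes passed, all with a positive difference. These differences share the groups of the comparisons above and are no separate evidence.

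**Figure D3:**
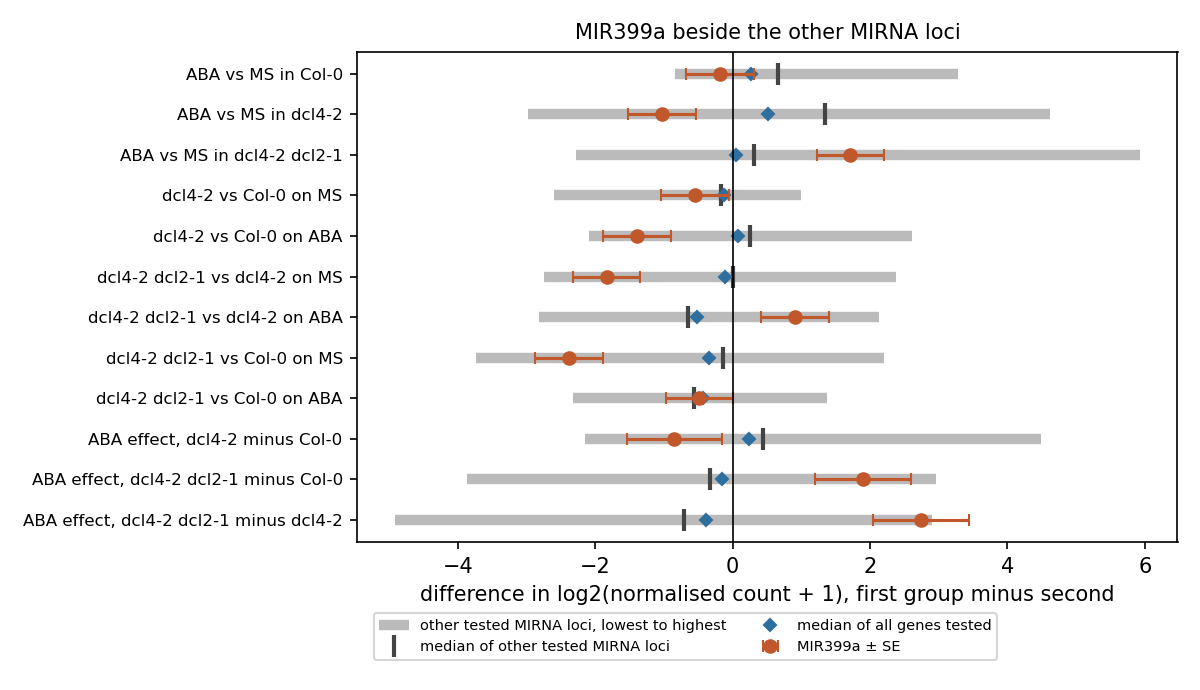
Log2 differences of MIR399a (orange, ± SE) in 9 comparisons and in 3 differences between ABA effects (rows), with the range (grey) and median (black tick) of the 91 other tested MIRNA loci and the median of all genes tested (blue). MIR399a lies at -2.38 in dcl4-2 dcl2-1 against Col-0 on MS, the comparison in which it passed, and at 2.74 in the lowest row, where it did not.

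As a share of the summed level of the 178 MIRNA loci, MIR399a differed between ABA and MS without overlap in both mutants. It made up 4.92% to 7.95% in dcl4-2 dcl2-1 on ABA and 1.93% to 3.55% in dcl4-2 dcl2-1 on MS. In dcl4-2 it made up 1.60% to 2.08% on ABA and 8.58% to 12.5% on MS. In Col-0 it made up 3.97% to 9.07% on ABA and 8.53% to 26.0% on MS. In dcl4-2 dcl2-1 the libraries on ABA lay above those on MS, as did those of 3.02% of all genes tested and of 13 of the 91 other MIRNA loci on this scale. In dcl4-2 the libraries on ABA lay below those on MS, as did those of 4.92% of all genes tested and of 10 of the 91 other MIRNA loci, while on the scale of normalised counts the libraries of MIR399a in dcl4-2 overlapped. The high end is 1 library, C of Col-0 on MS, where MIR399a was the first of all MIRNA loci. The shares in dcl4-2 dcl2-1 on MS rest on the sets of reads taken for MIR399a and for other MIRNA loci. So does the scaling to equal MIRNA level. Shares from the other sets were not worked out. A share falls when other loci rise, and the summed MIRNA level per library was 8433 to 14412 in dcl4-2 on ABA and 2127 to 6059 in dcl4-2 on MS.

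**Figure D4:**
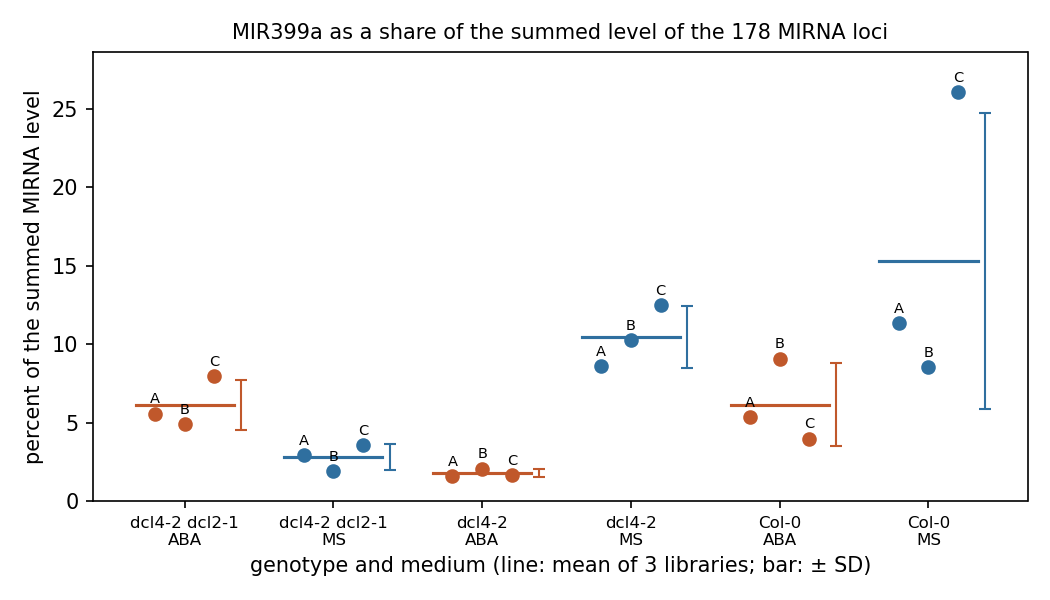
MIR399a in percent of the summed normalised count of the 178 MIRNA loci in each library (points, with the library letter); lines are means and bars ± SD of 3 libraries. In dcl4-2 the libraries on ABA lie at 1.60% to 2.08%, below those on MS at 8.58% to 12.5%, and in dcl4-2 dcl2-1 those on ABA lie above those on MS.

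MIR399b, MIR399c and MIR399d were near the limit of detection. MIR399c had 0, 2 and 0 reads in dcl4-2 dcl2-1 on ABA, 1, 2 and 0 in the double mutant on MS, 21, 12 and 0 in dcl4-2 on ABA, 0 in all 3 of dcl4-2 on MS, 1, 3 and 3 in Col-0 on ABA, and 0, 4 and 0 in Col-0 on MS. MIR399d had 0, 1 and 0 in dcl4-2 dcl2-1 on ABA, 0, 1 and 0 in the double mutant on MS, 21, 13 and 0 in dcl4-2 on ABA, 0 in all 3 of dcl4-2 on MS, 2, 2 and 3 in Col-0 on ABA, and 1, 0 and 0 in Col-0 on MS. The largest read numbers stand in the 2 deepest libraries and amount to less than 2 normalised counts there: as reads over summed size factors, MIR399c stood at 1.42 (95% exact Poisson interval 0.979 to 2.00) in dcl4-2 on ABA and at 1.26 (0.507 to 2.60) in Col-0 on ABA. MIR399b had 2, 2 and 0 reads in dcl4-2 on ABA, 1, 1 and 0 in Col-0 on ABA, 0, 1 and 0 in Col-0 on MS, and 0 elsewhere. In the deepest library MIR399b and MIR399c had 2 and 21 reads. The mature form that they share is 21 nt long and so is not counted among these 22-nt reads. No 22-base window of either hairpin is found elsewhere in the genome.

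Neither MIR399c nor MIR399d passed in any of the 9 comparisons. The largest positive log2 differences were 0.85 ± 0.62 for MIR399c (limma, adjusted p = 0.401) and 0.87 ± 0.54 for MIR399d (limma, adjusted p = 0.307), both for ABA against MS in dcl4-2, where the libraries on MS are at 0 reads. The largest negative ones were -0.83 ± 0.62 for MIR399c in dcl4-2 against Col-0 on MS and, for MIR399d, -0.88 ± 0.54 in dcl4-2 dcl2-1 against Col-0 on ABA. Differences of these loci were not detectable at this depth.

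The neighbours of MIR399d were low too. MIR399f had 5, 0 and 0 reads in dcl4-2 dcl2-1 on ABA, 6, 5 and 0 in the double mutant on MS, 51, 51 and 0 in dcl4-2 on ABA, 5, 5 and 0 in Col-0 on ABA, and 0 in both groups dcl4-2 on MS and Col-0 on MS. MIR399e had 11 reads in all and was not tested. MIR399f passed in no comparison; its largest log2 difference was 1.76 ± 0.68, in dcl4-2 dcl2-1 against dcl4-2 on MS (limma, adjusted p = 0.357) and against Col-0 on MS (limma, adjusted p = 0.226), 2 groups that are both at 0 reads. Under ABA in dcl4-2 it stood at 1.65 ± 0.68 (limma, adjusted p = 0.114).

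The genes on which miR399 acts, and others of phosphate homeostasis, gave almost no 22-nt reads. Of a list of 26, 15 had any read, 23 had a mean under 1 normalised count in every group, and 3 were tested (PHO2, the phosphate exporter gene PHO1, and SIZ1, a SUMO ligase that acts on PHR1). None of the 3 passed in any of the 9 comparisons. PHO2 had 15 reads in 18 libraries, 8 of them in library A of dcl4-2 on ABA, and its highest group mean was 0.958 normalised counts, in Col-0 on MS.

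The other regulators were at the same floor. IPS1 had 0 reads and AT4 had 1. NLA, a ubiquitin ligase for phosphate transporters, had 5 reads, and MIR827, the locus of the microRNA that targets NLA, had 11 reads, 10 of them in libraries A and B of dcl4-2 on ABA. By highest group mean, the most abundant genes of the list were AT1G63010, which was not tested, with 17 reads and a mean of 2.01 in dcl4-2 on MS (library A alone had reads there, 5), and SIZ1, with 26 reads and a mean of 1.80 in the same group. Against Col-0 on MS, SIZ1 in dcl4-2 on MS stood at 1.26 ± 0.57 (limma, adjusted p = 0.460).

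The genes whose levels went most like MIR399a over the 18 libraries, by Pearson correlation of log2(normalised count + 1) among 5695 genes, were AT4G13885 (r = 0.85), AT2G04066 (0.82), AT3G20690 (0.81) and the pseudogenes AT1G24967 (0.81) and AT4G10460 (0.81). AT4G13885 averaged 11.96 normalised counts in dcl4-2 dcl2-1 on ABA, 4.45 in dcl4-2 dcl2-1 on MS, 4.34 in dcl4-2 on ABA, 20.8 in dcl4-2 on MS, 13.3 in Col-0 on ABA and 22.9 in Col-0 on MS. None of the 5 is a MIRNA locus. The libraries share groups and size factors, so these values describe the libraries only. MIR399c (r = -0.18), MIR399d (-0.01) and MIR399f (-0.39) did not follow MIR399a, which at their counts is no finding. The nearest to MIR399c was AT5G10340 (r = 0.87) and to MIR399d the pseudogene AT2G05610 (r = 0.91), both of which rest on which libraries happened to hold a read.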

How the data were processed

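Small RNA libraries of 18 samples were analysed from 1 deposited table of 22-nt reads per gene. The submitters' processing notes list Bowtie 1.2.2, SAMtools 1.9, DESeq2 and TAIR10 and give them no role. The deposited values, headed TPM per the file headers, are a signal of another kind: group means of reads over size factors. A group's values are sums of whole multiples of 3 steps (relative tolerance 2e-14), the same for every gene, and the steps of 17 of 18 libraries equal 1 over the median of ratios over 77 genes found in every library; the other differs by -0.682%. The design had assumed RPM; the test was kept. The authors' deposited log2 fold changes and p-values cover 4 comparisons and carry no error. The labels conflict on tissue, age and treatment: the sample's own tissue, age and medium, which the series' design text repeats, were followed over the growth and treatment fields.

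Library reads were solved from the deposited group means. In dcl4-2 dcl2-1 on MS, 35 genes had several solutions, and for 33 the one was taken whose negative binomial fold change equals the authors' deposited log2 fold change within 0.001; in 31 genes with 1 solution the difference was at most 3.65e-05. Tests used limma 3.58.1 in R 4.3.3 with a trend in the prior variance on log2(value + 1), all 18 libraries sharing the spread, genes with at least 1 normalised count in 3 libraries, two-sided, and Python 3.11.15 for the rest. Spread measures these libraries; replicates are biological per the labels. Named beyond the family were 5 phosphate genes (PHO2, IPS1, AT4, NLA, MIR827), any of the list of 26 that passed, the 2 with the highest group mean among those that passed nowhere, and the 5 genes most correlated with each tested member. The tests were tried on simulated data. Members, lists and tests were chosen with earlier results of these data known. Alternatives were other pseudocounts, filters, scalings, weights, read solutions, left-out libraries and the authors' table.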

Additional observations from a re-analysis of the deposited data

How the results depend on the processing

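No paired analysis was possible because the recovered libraries carry no replicate number. Of the 12 MIR399a results, the drop in dcl4-2 dcl2-1 against Col-0 on MS kept its direction in all 18 alternatives and passed in 17 (-3.05 to -1.83; adjusted p by limma 3.19e-05 to 0.0794), the exception being the fit without library C of Col-0 on MS. The most even read solution, the scaling to equal summed level of all recovered genes and the fit without the 3 shallow mutant libraries were chosen after seeing the data. The median of ratios scaling could change little, since the values are already so scaled: it divided the libraries by 0.987 to 1.07. Calls that did not pass as reported but did otherwise were, for ABA in dcl4-2, -2.53 (equal MIRNA level), -2.11 (equal summed level) and -1.07 (voom weights); for ABA in dcl4-2 dcl2-1, 1.65 (most even solution); for dcl4-2 against Col-0 on ABA, -1.48 (voom); for dcl4-2 dcl2-1 against dcl4-2 on MS, -1.84 (pseudocount 0.5), -1.83 (filter of 5), -1.92 (equal MIRNA level), -1.88 (median of ratios), -1.60 (voom) and -1.77 (most even solution), and on ABA 1.91 (equal summed level); and for the ABA effect in dcl4-2 dcl2-1 minus dcl4-2, 3.68 (equal MIRNA level), 2.41 (voom), 2.68 (most even solution) and 3.44 (equal summed level). The sign turned for dcl4-2 dcl2-1 against Col-0 on ABA, to 0.058 with equal MIRNA level and 0.23 with equal summed level. Causes were not tested.

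With 1 library left out, MIR399a ranged, for ABA against MS, from -0.59 to 0.21 in Col-0, from -1.43 to -0.53 in dcl4-2 and from 1.27 to 1.94 in dcl4-2 dcl2-1; for dcl4-2 against Col-0, from -1.04 to -0.15 on MS and from -1.58 to -1.25 on ABA; for dcl4-2 dcl2-1 against dcl4-2, from -2.23 to -1.34 on MS and from 0.47 to 1.14 on ABA; for dcl4-2 dcl2-1 against Col-0, from -2.79 to -1.99 on MS and from -0.93 to -0.25 on ABA; and for the ABA effects, from -1.24 to -0.35 in dcl4-2 minus Col-0, from 1.45 to 2.31 in dcl4-2 dcl2-1 minus Col-0 and from 2.25 to 3.14 in dcl4-2 dcl2-1 minus dcl4-2.

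The number of all genes past the threshold depended more on the setting. In the order ABA against MS in dcl4-2 dcl2-1, in dcl4-2 and in the wild type, then dcl4-2 against Col-0 on MS and ABA, dcl4-2 dcl2-1 against dcl4-2 on MS and ABA, dcl4-2 dcl2-1 against Col-0 on MS and ABA, and the ABA effects of dcl4-2 minus Col-0, dcl4-2 dcl2-1 minus Col-0 and dcl4-2 dcl2-1 minus dcl4-2, it was 9, 311, 38, 28, 13, 34, 357, 68, 37, 15, 10 and 6 as reported and 5, 40, 12, 5, 7, 7, 73, 19, 19, 3, 5 and 2 with no filter. With 1 library left out it ranged, in that order, from 5 to 35, 13 to 258, 8 to 41, 7 to 30, 6 to 11, 20 to 36, 65 to 294, 32 to 88, 12 to 36, 4 to 22, 6 to 16 and 1 to 19. Other counts that moved by over 1.5 times were, with equal MIRNA level, 5, 17 and 24 for ABA in the 3 genotypes, 5 for dcl4-2 against Col-0 on ABA, 61 and 7 for the double mutant against dcl4-2 on MS and on ABA, 12 against Col-0 on ABA, and 3 and 2 for the ABA effects of dcl4-2 minus Col-0 and of the double mutant minus dcl4-2. With equal summed level they were 24 and 18 for ABA in Col-0 and dcl4-2, 5 for dcl4-2 against Col-0 on ABA, 20 and 12 for the double mutant against dcl4-2 and Col-0 on ABA, and 3 and 3 for those same ABA effects. With the compared groups alone they were 503 for ABA in dcl4-2, 14 and 69 for dcl4-2 against Col-0 on MS and ABA, 18 for the double mutant against dcl4-2 on MS, 26 and 285 against Col-0 on MS and ABA, and 1 for the last ABA effect. With voom they were 12 and 125 for dcl4-2 against Col-0 on MS and ABA, 39 for the double mutant against Col-0 on MS and 15 for the last ABA effect. Pseudocount 5 gave 60 for ABA in Col-0, 27 for dcl4-2 against Col-0 on ABA, 18 for the double mutant against dcl4-2 on MS and 2 for the last ABA effect, and pseudocount 0.5 gave 13 for dcl4-2 against Col-0 on MS. The filter of 5 gave 22 for ABA in the double mutant and 109 for it against Col-0 on ABA. The most unequal solution gave 5 for ABA in the double mutant and 3 for the last ABA effect, and the most even gave 12 for the latter. The authors' deposited table has 132, 5 and 180 for ABA in dcl4-2, ABA in dcl4-2 dcl2-1 and the double mutant against dcl4-2 on ABA. Without the 3 shallow mutant libraries the counts were 82 and 73 for ABA in Col-0 and dcl4-2, and 68 and 22 for the double mutant against dcl4-2 and Col-0 on ABA.

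MIR399c and MIR399d, never past the threshold, changed sign or came to 0 in 34 cases. With 1 library left out, MIR399c ranged from -0.074 to 1.17 for ABA in Col-0, from -0.84 to 0.030 for ABA in dcl4-2 dcl2-1, from -1.24 to 0 and from -0.63 to 0.10 for dcl4-2 against Col-0 on MS and on ABA, from -0.40 to 0.84 for dcl4-2 dcl2-1 against Col-0 on MS and from -0.32 to 0.93 for the ABA effect of dcl4-2 minus Col-0. MIR399d ranged from -0.34 to 0.31 for ABA in dcl4-2 dcl2-1, from -0.51 to 0 and from -0.59 to 0.12 for dcl4-2 against Col-0 on MS and on ABA, from 0 to 0.50 for dcl4-2 dcl2-1 against dcl4-2 on MS, from -0.34 to 0.34 for it against Col-0 on MS and from -0.32 to 0.45 for the ABA effect of dcl4-2 minus Col-0. Under the other settings, MIR399c stood at -0.13 for ABA in Col-0 (equal MIRNA level), at -0.070 and -0.19 for dcl4-2 dcl2-1 against Col-0 on MS (pseudocount 5, equal MIRNA level) and at 0.000195 and 0.10 for dcl4-2 against Col-0 on ABA (voom, without the shallow libraries). MIR399d stood at 0.051 for ABA in dcl4-2 dcl2-1 (equal MIRNA level), at 0.40, 0.025 and 0.16 for dcl4-2 dcl2-1 against Col-0 on MS (voom, equal summed level, without the shallow libraries) and at 0.12 for dcl4-2 against Col-0 on ABA (without the shallow libraries). Depth limits MIR399b, MIR399c and MIR399d, which had reads in 5, 9 and 8 of the 18 libraries.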
